A study of Mus musculus with 4 samples.

Results

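The 6 transcripts described here are the messengers that mitochondrial DNA encodes for respiratory complexes III and IV and for the ATP synthase (complex V). They were chosen by transcript identifier, with earlier results of these data known. They are 6 of the 116912 transcripts listed in every file, and all 6 were found. The names are those the selection gave with the identifiers, and all 6 symbols are in the mouse gene table used here. Complex III was represented by mt-Cytb (ENSMUST00000082421.1), which codes for cytochrome b. Complex IV was represented by mt-Co1 (ENSMUST00000082402.1), mt-Co2 (ENSMUST00000082405.1) and mt-Co3 (ENSMUST00000082409.1), and complex V by mt-Atp6 (ENSMUST00000082408.1) and mt-Atp8 (ENSMUST00000082407.1).

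RNA was sequenced from dorsal root ganglia, the ganglia that house the bodies of sensory neurons, of adult mice. There were 4 groups of 1 sample each. Bulk RNA was total RNA of wild-type CD-1 mice, either uninjured or 72 hours after sciatic nerve injury, read with a nanopore direct RNA kit. RiboTag RNA, from the same 2 states, was pulled down with an anti-HA antibody from RPL22HA+/+;Advillin-Cre+ mice and read with a nanopore cDNA-PCR kit. These mice carry the tagged allele of B6N.129-Rpl22tm1.1Psam/J and the Cre of the line B6.129P2-Aviltm2(cre)Fawa/J. Cre driven by Advillin, a gene of sensory neurons, switches on the HA-tagged form of the ribosomal protein Rpl22. The RiboTag libraries differ from the bulk ones in kit, strain, genotype and immunoprecipitation at once, and what each contributes cannot be told apart. The labels do not say whether uninjured mice had a sham operation or how many mice went into a sample.

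Complexes III and IV pass electrons from ubiquinol through cytochrome c to oxygen and move protons across the inner mitochondrial membrane, and complex V uses the returning protons to make ATP. Most of their subunits come from nuclear genes, and the few encoded in mitochondrial DNA sit in the membrane core. Their messengers are cut from long polycistronic transcripts, often at the flanking tRNAs, and are translated inside the organelle by mitochondrial ribosomes. Rpl22 is a protein of the cytosolic ribosome. Sensory neurons have long axons with a high demand for ATP, and mitochondria are carried along them.

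Each library was deposited as 3 numbered columns of estimated reads. The labels give 1 sample per library, so the columns were averaged and counted as 1 sample, and their range is given only to show how steady a value was. Mean depth was 592935 and 529332 reads per column in uninjured and injured bulk RNA, and 207597 and 79334 in uninjured and injured RiboTag RNA. Levels are on the deposited TPM scale, which here is reads over the library total and holds no transcript length, so levels of different members are not ranked against each other. Intervals are exact 95% intervals for counting error, not for the spread between animals, and no p-value between conditions is given. Reads of the PCR libraries carry no molecular identifiers and are not independent molecules. The limit set by a count of 0, 3 reads, stood at 5.06, 5.67, 14.5 and 37.8 TPM in the order above. The files do not pair transcript identifiers with gene symbols, so nuclear subunits of these complexes, other mitochondrial genes and cell type markers were not analysed here, and the labelled tissue was not checked against markers.

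In bulk RNA the 6 transcripts together took 6.25% of reads without injury (exact binomial interval 6.19% to 6.31%) and 5.32% after it (5.26% to 5.38%). In RiboTag RNA they took 0.136% (0.120% to 0.153%) and 0.118% (0.0958% to 0.145%). mt-Co2 took more reads than any other transcript in both bulk libraries. The summed bulk reads were lower after injury by a log2 ratio of -0.23 (-0.25 to -0.21), and the summed RiboTag reads had a log2 ratio of -0.19 (-0.55 to 0.14), an interval that included no change. RiboTag totals hold a pair of very abundant transcripts. With that pair left out of the totals, the RiboTag shares were 0.197% and 0.201%, so the order of the 2 states turned.

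**Figure D1:**
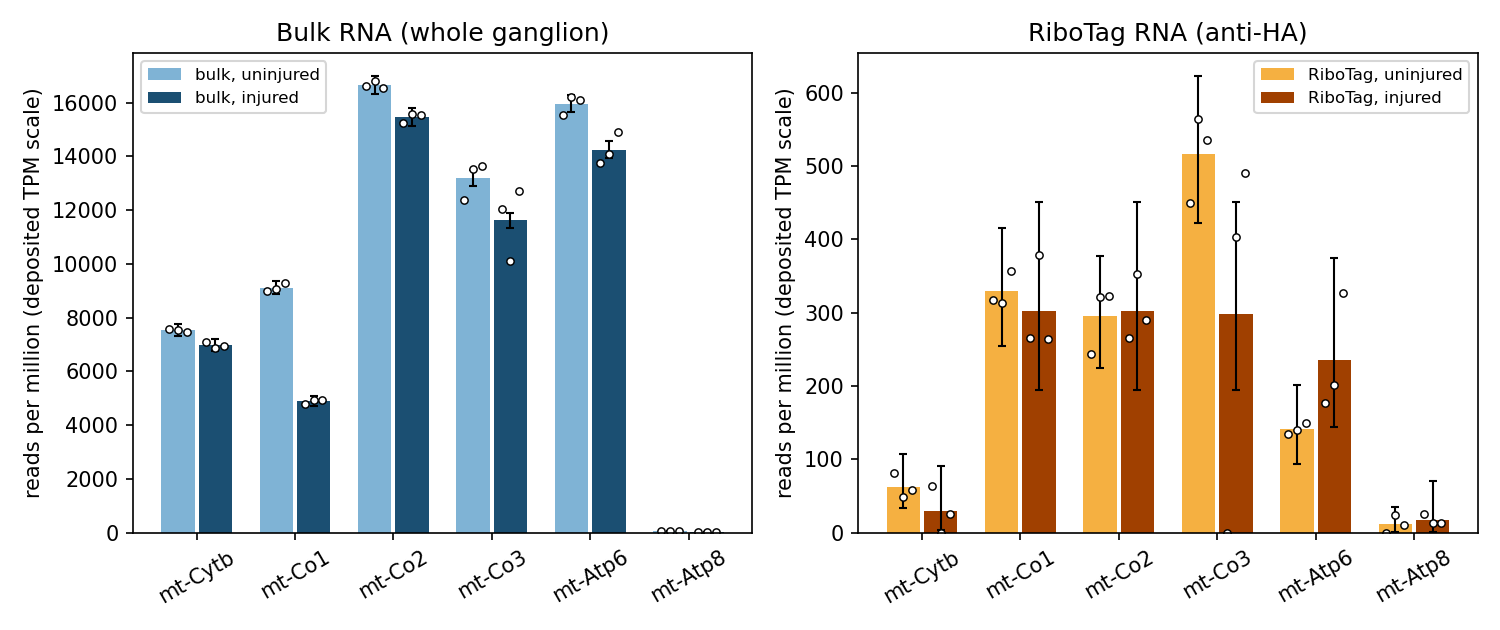
Level of each transcript in bulk RNA (left) and RiboTag RNA (right), in TPM on linear axes that differ between panels. Bars are the mean of 3 columns, white points the columns, and lines the exact Poisson 95% interval. The mt-Co1 columns lie between 8976 and 9272 in uninjured bulk and between 4779 and 4948 in injured bulk RNA, while RiboTag levels of all 6 stay at or under 516.

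mt-Co1 was the member with the clearest injury difference in the whole ganglion. It encodes the catalytic subunit of cytochrome c oxidase, which holds the heme and copper centre where oxygen is reduced. The 3 columns held 5319, 5385 and 5495 reads without injury and 2528, 2621 and 2610 after it. On the scaled level this was 9107 TPM (interval 8866 to 9353) against 4886 (4701 to 5079). The columns of the 2 libraries were far apart. Within each library they varied by about what counting gives, with a chi-square per degree of freedom of 1.48 and 0.94. The median over all transcripts with 20 or more reads was 1.01 and 0.95, so this steadiness is not particular to mt-Co1. The log2 ratio was -0.90 (-0.97 to -0.83), a 1.86-fold lower level. This missed the 2-fold mark used to count a transcript as changed, so mt-Co1 is not among those counted. In bulk tissue, fewer cells of a type and less RNA per cell cannot be told apart.

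The other complex IV and complex III messengers differed much less in bulk RNA. mt-Co2, whose product takes electrons from cytochrome c at a copper site, had 9853, 9980 and 9811 reads without injury and 8054, 8247 and 8232 after it. Its log2 ratio was -0.11 (-0.15 to -0.07), and its scaled columns did not overlap between the libraries. mt-Cytb, the membrane subunit that holds the quinone sites of complex III, had 4479, 4475 and 4428 reads without injury and 3757, 3634 and 3673 after it. Its log2 ratio was also -0.11 (-0.17 to -0.05), again with scaled columns apart. These small differences were larger than counting error, and whether they exceed the spread between animals was not tested, since each group had 1 sample.

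For complex V, mt-Atp6 codes for the membrane subunit that forms the proton path beside the rotor. It had 9202, 9631 and 9545 reads without injury and 7276, 7468 and 7879 after it, a log2 ratio of -0.16 (-0.21 to -0.12). Its scaled columns were lower in injured bulk RNA without overlap. mt-Atp8, a small subunit of the membrane part, is encoded next to mt-Atp6 in the RefSeq gene order, and the pair is known to share one messenger with overlapping reading frames. It held only 27.7, 27.8 and 29.1 reads without injury and 11.2, 16.1 and 4.88 after it. mt-Atp8 was counted as lower at a log2 ratio of -1.19 (-2.34 to -0.13), the single member that passed the 2-fold rule in bulk RNA. That call rested on few reads and ended without the third column (log2 ratio -0.83), with 5 in place of 0.5 reads added to each count (-0.91) and at a minimum of 50 reads. With mt-Atp8 and mt-Atp6 summed, the log2 ratio was -0.17 (-0.21 to -0.12).

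All 6 members had 20 or more bulk reads, and all 6 had a log2 ratio below 0, with a median of -0.17 beside -0.0031 over 7739 transcripts tested. The 2-fold rule counted 1 of 6 members as lower, where it counted 4.55% of all transcripts as lower, and 0 as higher, where it counted 5.21%. The scaled columns were lower without overlap for 5 of 6 members (all but mt-Co3), where this held for 9.90% of all transcripts, and higher for 0, where it held for 10.3%. Whether columns overlap depends on read depth, so these shares are not a like comparison. mt-Cytb, mt-Co1, mt-Co2 and mt-Atp6 each held over 1000 reads in both bulk libraries, and the share among transcripts of that depth was not computed. Reads from 1 genome and 1 library are shared by these members, so the 6 are not independent. Among the 41 transcripts with 1000 or more reads in uninjured bulk RNA, a limit chosen after the values were seen, mt-Co1 had the lowest log2 ratio. The 41 ranged from -0.90 to 0.40 with a median of -0.0099, and the rule counted 0 of them as changed in either direction.

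The lower level of mt-Co1 was also seen within the group of 6, where library totals play no part. It held 14.6% of the reads of the 6 transcripts without injury (14.2% to 14.9%) and 9.19% after it (8.85% to 9.53%). Against the sum of the other members its log2 ratio differed by -0.75 (counting interval -0.82 to -0.69). The columns of that log2 ratio lay between -2.58 and -2.54 without injury and between -3.34 and -3.24 after it. Relative to the sum of the others, mt-Cytb differed by 0.14 (0.08 to 0.20), mt-Co2 by 0.17 (0.13 to 0.21), mt-Co3 by 0.06 (0.01 to 0.11) and mt-Atp6 by 0.09 (0.05 to 0.14), each against a sum that includes mt-Co1. mt-Atp8 differed by -0.96 (-2.11 to 0.10), an interval that included no change. Intervals against the sum of the others hold the counting error of the member alone, since the sum was taken as fixed. The level of mt-Co1 was 4220 TPM lower in injured than in uninjured bulk RNA, and the largest net gain of any single transcript was 1130 TPM. Whether reads of mt-Co1 were assigned to other transcripts was not tested.

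**Figure D2:**
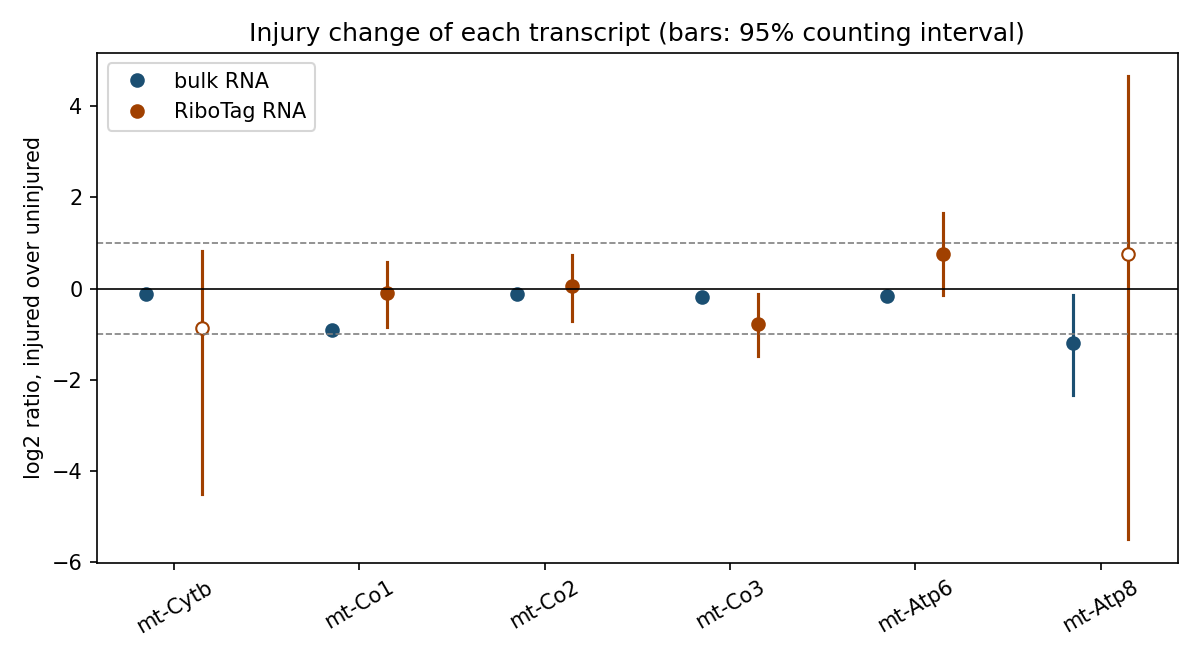
Log2 ratio of injured over uninjured RNA for each transcript in bulk (blue) and RiboTag RNA (brown), with 95% counting intervals. Dashed lines mark 2-fold, and open circles are values under the read minimum. In bulk RNA mt-Co1 stands at -0.90, apart from mt-Cytb, mt-Co2, mt-Co3 and mt-Atp6 between -0.18 and -0.11, while RiboTag intervals are wide.

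mt-Co3, a core subunit of complex IV without a metal centre, is given here alone and with a second transcript. Its bulk columns were 7328, 8025 and 8091 reads without injury and 6363, 5356 and 6723 after it, a spread of 22.5 and 82.6 in chi-square per degree of freedom. The transcript ENSMUST00000190277.2 varied the opposite way, with 1132, 652 and 488 reads without injury and 815, 1819 and 327 after it. Among 116911 other transcripts it was the one that best cancelled the column differences of mt-Co3 in each bulk library, leaving 6.62% and 1.05% of them in the sum. The summed columns were 8460, 8677 and 8579 and then 7178, 7175 and 7051 reads, with a chi-square per degree of freedom of 1.20 and 0.72. In RiboTag RNA it ranked 520 without injury and 3 after it, with 48.5% and 4.39% left. This pairing was chosen after the values were seen, so the bulk ranks and the steady sums, over 3 columns each, do not test it. The bulk log2 ratio of mt-Co3 was -0.18 (-0.23 to -0.13) alone and -0.10 (-0.15 to -0.06) with the second transcript added.

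mt-Atp6 had such a partner in ENSMUST00000189941.2, listed 14 places after the partner of mt-Co3. It held 345, 0 and 238 reads in uninjured and 611, 432 and 0 in injured bulk RNA. In injured bulk RNA it cancelled the column differences of mt-Atp6 best of all transcripts, with 0.109% left and summed columns of 7887, 7899 and 7879 reads. In uninjured bulk RNA it ranked 16 and left 27.9%. This partner too was chosen after the values were seen. With the partner added, the bulk log2 ratio of mt-Atp6 was -0.13 (-0.17 to -0.08). RefSeq (GRCm38.p6) lists a pseudogene on chromosome 1, Gm10925, with mt-Atp6 among its synonyms. Whether either partner is a nuclear copy of a mitochondrial gene was not tested.

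**Figure D3:**
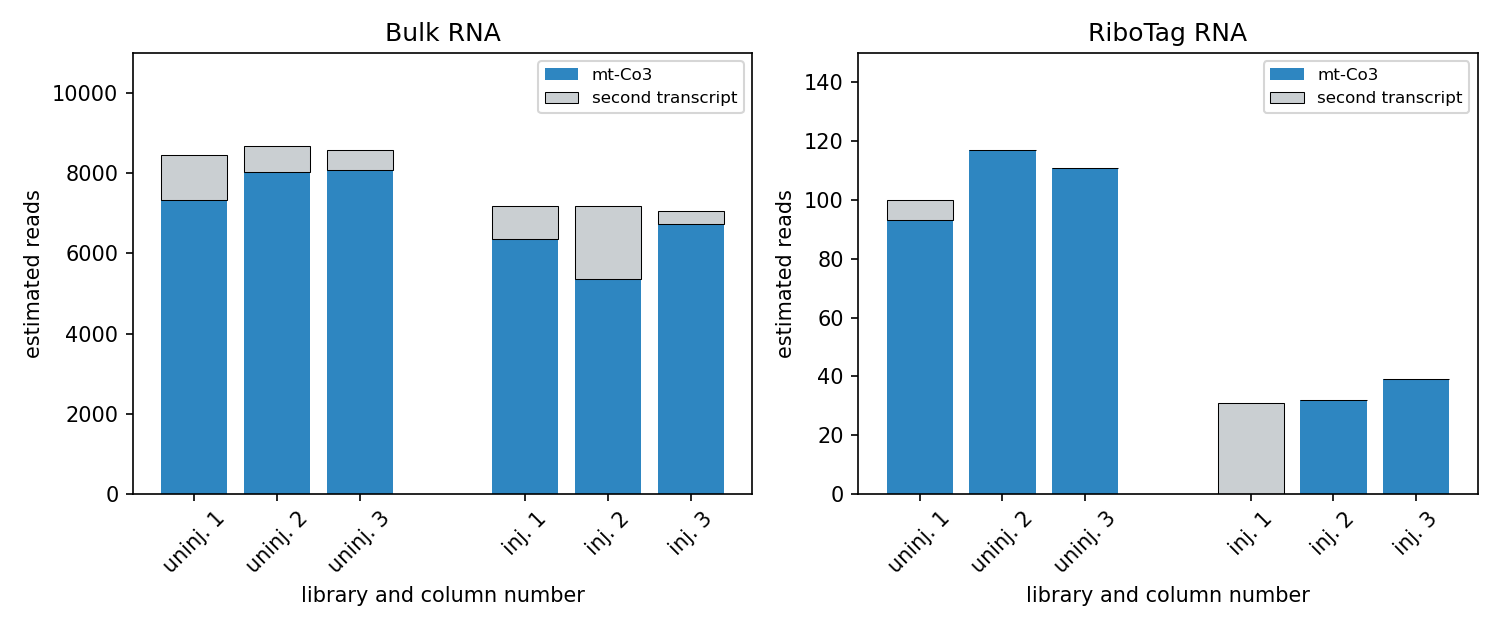
Estimated reads of mt-Co3 (blue) and of ENSMUST00000190277.2 (grey, stacked) in each of the 3 columns of each library, for bulk (left) and RiboTag RNA (right). The stacks are nearly level within each bulk library. In RiboTag RNA they stand at 100, 117 and 111 reads without injury and at 31, 32 and 39 after it. In the first injured RiboTag column all 31 reads went to the second transcript while mt-Co3 was at 0.

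In RiboTag RNA the injury changes of the members were mostly within counting error. mt-Co1 had 66, 65 and 74 reads without injury and 21, 30 and 21 after it, in libraries of different depth. Its scaled columns overlapped, from 313 to 357 TPM and from 264 to 378. The log2 ratio was -0.10 (-0.85 to 0.58), and its sign turned when the abundant pair was left out of the totals. mt-Co2 had 50.6, 66.7 and 67 reads and then 21, 28 and 23, a log2 ratio of 0.05 (-0.70 to 0.74) whose sign turned under TMM scaling and under DESeq2 size factors. A change of either messenger was not detectable at this depth.

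mt-Co3 had 93.2, 117 and 111 RiboTag reads without injury and 0, 32 and 39 after it. Alone its log2 ratio was -0.77 (-1.47 to -0.12), an interval below no change. With the abundant pair left out of the totals the interval included no change (-0.55, -1.25 to 0.10), as it did without the first column (-0.28, -0.86 to 0.28). The interval stayed below no change under TMM scaling (-1.64 to -0.28), under DESeq2 size factors (-1.59 to -0.24) and with summed columns (-1.18 to -0.41). The same held without the second column (-1.73 to -0.26) and without the third (-2.18 to -0.56). The partner transcript held 31 reads in the column where mt-Co3 had 0, and 0 in the other injured columns. With it added, the columns were 100, 117 and 111 and then 31, 32 and 39, and the log2 ratio was -0.28 (-0.89 to 0.27), an interval that included no change. mt-Atp6 had 28, 29 and 31 reads and then 14, 16 and 26, with scaled columns of 135 to 149 and 177 to 327 TPM that did not overlap. Its log2 ratio of 0.75 (-0.14 to 1.66) was above 0 under each scaling. The interval included no change here, and excluded it with the abundant pair left out of the totals (0.97, 0.08 to 1.88) and with summed columns (0.74, 0.23 to 1.24). Against the sum of the other 5, the log2 ratio of mt-Atp6 was 1.10 higher after injury (0.22 to 2.02, counting error of mt-Atp6 alone). That sum includes the column where mt-Co3 had 0 reads. The log2 ratio of mt-Atp6 to the sum was -3.08 without injury and -1.98 after it. With the partner transcripts added it was -3.10 and -2.17, a smaller difference. ENSMUST00000189941.2 had 0 reads in both RiboTag libraries.

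mt-Cytb and mt-Atp8 had under 20 RiboTag reads over the 2 libraries and did not enter the count. mt-Cytb had 17, 10 and 12 reads and then 5, 0 and 2, a log2 ratio of -0.86 (-4.50 to 0.83). mt-Atp8 had 0, 5 and 2 reads and then 2, 1 and 1, with a log2 ratio of 0.76 (-5.49 to 4.65). Neither value bounds a change usefully. Of the 4 members with enough reads the 2-fold rule called 0 in either direction, where it called 2.95% of 1866 transcripts higher and 8.04% lower. Over all transcripts these were 55 higher and 150 lower, which became 89 and 85 with the abundant pair left out of the totals and 41 and 223 under TMM scaling. Only the scaled columns of mt-Atp6 were higher without overlap, which held for 10.1% of all transcripts, and 0 of the 4 were lower without overlap, which held for 28.0%. The median log2 ratio of the 4 was -0.03, beside -0.21 over all transcripts tested.

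The members were far lower in RiboTag than in bulk RNA, in both states. Without injury the summed reads had a log2 ratio of -5.52 (-5.70 to -5.35), 46.0-fold lower, and after injury of -5.48 (-5.80 to -5.20), 44.6-fold lower. The 2-fold rule counted 6 of 6 members as lower without injury, where it counted 44.1% of 6174 transcripts as lower, and 5 of the 5 members tested after injury, where it counted 36.0% of 5045. It counted 0 members as higher, where it counted 14.5% and 7.69% of transcripts. With the abundant pair left out of the totals, the transcripts counted went from 894 higher and 2723 lower to 1271 and 1955 without injury, and from 388 and 1814 to 679 and 892 after it. The median log2 ratio was -5.29 for the 6 members without injury and -5.64 for the 5 after it, beside -0.98 and -1.25 over all transcripts. mt-Cytb and mt-Atp8 without injury, and mt-Cytb and mt-Atp6 after it, passed the read minimum only with their bulk reads. Columns were lower without overlap for all members tested, which held for 50.3% of transcripts without injury and 54.8% after it, and higher for 0, which held for 18.9% and 11.3%. No scaling tried turned the direction of mt-Cytb, mt-Co1, mt-Co2, mt-Co3 or mt-Atp6 in this comparison.

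**Figure D4:**
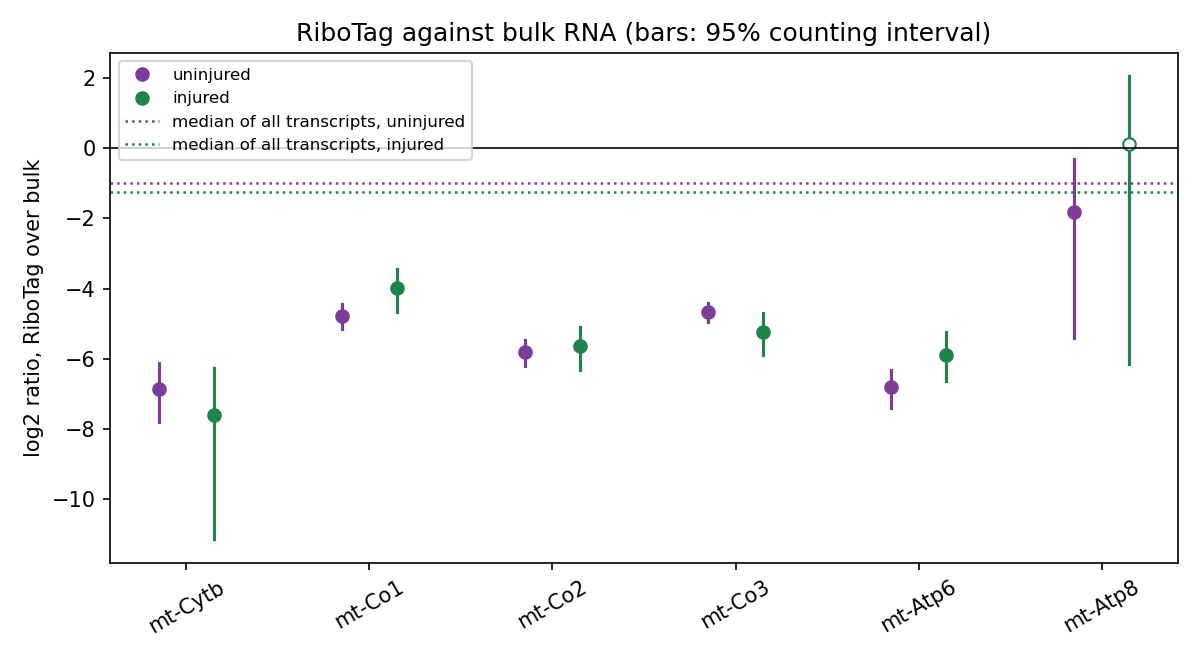
Log2 ratio of RiboTag over bulk RNA for each transcript without injury (purple) and after it (green), with 95% counting intervals; the open circle is under the read minimum. Dotted lines are the medians over all transcripts tested, -0.98 and -1.25. Apart from mt-Atp8, all points lie at -3.98 or below.

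The size of the difference was not the same for all members. Without injury mt-Cytb was 116-fold lower in RiboTag RNA (log2 ratio -6.85, interval -7.82 to -6.13), and mt-Atp6 was 111-fold lower (-6.79, -7.41 to -6.31). mt-Co2 was 55.9-fold lower (-5.80, -6.21 to -5.46). mt-Co1 and mt-Co3 differed least among these, 27.5-fold (-4.78, -5.16 to -4.45) and 25.4-fold lower (-4.67, -4.97 to -4.40). The intervals of mt-Co1 and mt-Co3 overlapped each other, and lay above those of mt-Co2, mt-Atp6 and mt-Cytb without overlap. Those of mt-Co2 and mt-Atp6 did not overlap either, while that of mt-Cytb overlapped both. mt-Atp8, with 28.2 bulk and 2.33 RiboTag reads, was 3.54-fold lower (-1.82, -5.41 to -0.31). Its call ended under TMM scaling, with the abundant pair left out of the totals, without the first column, at 5 added reads and at a minimum of 50 reads. With mt-Atp8 and mt-Atp6 summed, which share a messenger, the log2 ratio was -6.69 (-7.25 to -6.20), 103-fold lower.

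After injury mt-Cytb was again at the low end, with 3688 bulk and 2.33 RiboTag reads and a log2 ratio of -7.61 (-11.16 to -6.26). mt-Co2 stood at -5.64 (-6.32 to -5.10) and mt-Atp6 at -5.88 (-6.63 to -5.25). mt-Co1 was 15.8-fold lower, at -3.98 (-4.66 to -3.44). mt-Co3 stood at -5.25 (-5.91 to -4.69) alone and at -4.95 (-5.51 to -4.49) with its partner transcript. The interval of mt-Co1 lay above those of mt-Co2, mt-Atp6 and mt-Cytb, and overlapped that of mt-Co3 when the partner was added. mt-Atp8 had 10.7 bulk and 1.33 RiboTag reads and was not tested (0.12, -6.15 to 2.06). Summed with mt-Atp6, the log2 ratio was -5.79 (-6.53 to -5.19).

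The make-up of the 6 therefore differed between assays. Of their reads in uninjured RiboTag RNA, mt-Co3 held 38.0% (32.3% to 43.9%), against 21.1% (20.7% to 21.5%) in bulk RNA. mt-Co1 held 24.3% (19.2% to 29.5%) against 14.6% in bulk. mt-Atp6 held 10.4% (6.996% to 14.4%) against 25.5% (25.1% to 26.0%), and mt-Cytb 4.62% (2.48% to 7.75%) against 12.0% (11.7% to 12.4%). mt-Co2 was closer, at 21.8% (17.0% to 26.9%) against 26.7% (26.2% to 27.1%), and those intervals overlapped. Relative to the sum of the others, mt-Co2 differed by -0.37 on the log2 scale (-0.78 to -0.03, counting error of mt-Co2 alone). That interval excluded no difference. After injury mt-Co1 held 25.5% of the RiboTag reads of the 6 (17.1% to 35.6%) and 9.19% of those in bulk RNA, and these intervals did not overlap. Against the sum of the others, mt-Co1 then stood 1.79 higher on the log2 scale in RiboTag RNA (1.12 to 2.34, counting error of mt-Co1 alone). With the partner transcripts added, its log2 ratio to that sum was -1.72 in injured RiboTag and -3.38 in injured bulk RNA.

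**Figure D5:**
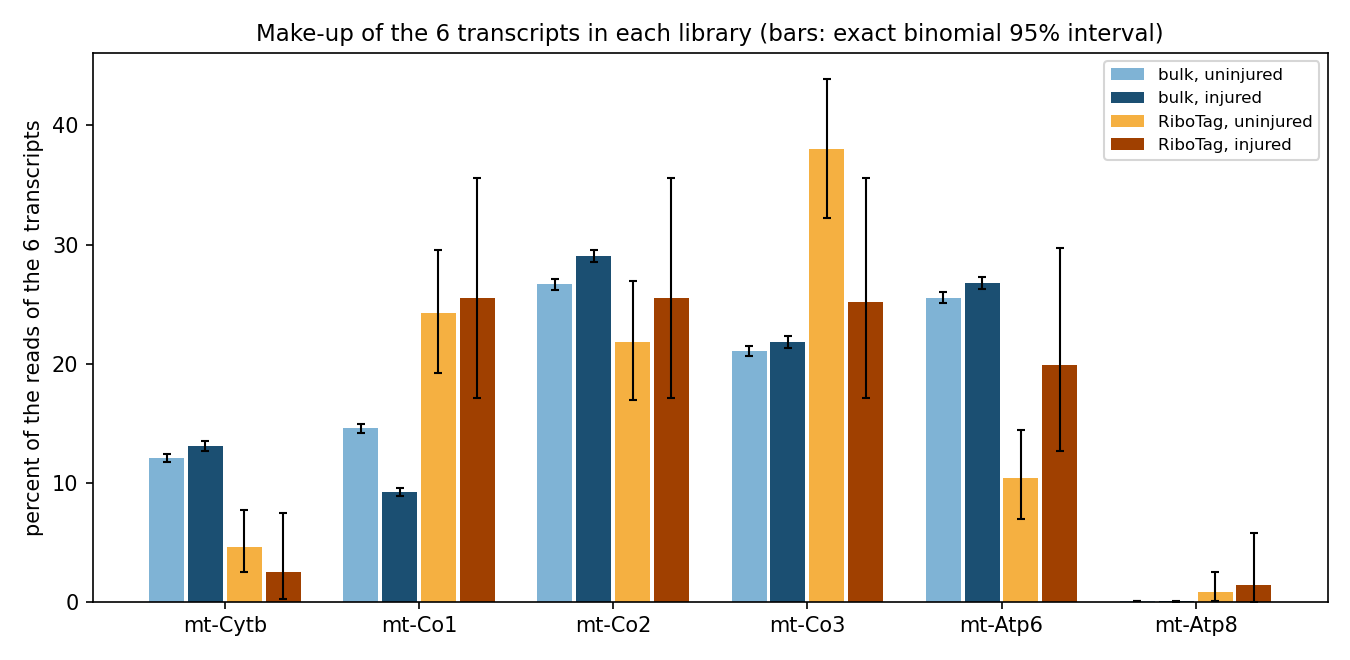
Share of each transcript among the reads of the 6, in percent, in the 4 libraries, with exact binomial 95% intervals. mt-Co1 stands at 14.6% and 9.19% in uninjured and injured bulk RNA and stands at 24.3% and 25.5% in RiboTag RNA, and mt-Atp6 and mt-Cytb hold smaller shares in uninjured RiboTag than in bulk RNA.

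The last comparison asked whether the injury change differed between the assays, as the log2 change in RiboTag minus that in bulk RNA. For the summed reads it was 0.04 (normal 95% interval from the counts -0.29 to 0.38). mt-Co1 differed by 0.80 (0.13 to 1.46) and mt-Atp6 by 0.91 (0.08 to 1.74), intervals that excluded no change, which held upward for 2.92% of 4905 transcripts. For 0 members the interval lay below no change, which held for 4.44%. The interval of mt-Co1 included no change under TMM scaling (-0.05 to 1.29) and without the second column (-0.12 to 1.28). That of mt-Atp6 did so under TMM scaling (-0.09 to 1.57), under DESeq2 size factors (-0.03 to 1.62) and without the third column (-0.22 to 1.56). mt-Co2 differed by 0.16 (-0.52 to 0.84) and mt-Cytb by -0.75 (-2.60 to 1.09). mt-Co3 differed by -0.58 (-1.22 to 0.05) alone and by -0.18 (-0.74 to 0.37) with its partner. Alone, its interval lay below no change under TMM scaling (-1.40 to -0.12), under DESeq2 size factors (-1.34 to -0.06), with summed columns (-0.97 to -0.23), without the second column (-1.59 to -0.21) and without the third (-1.81 to -0.31). mt-Atp8 had too few RiboTag reads to enter. Of the 5 members tested, 0 were counted as higher or lower at 2-fold, where the rule counted 2.63% and 3.61% of transcripts, and their median was 0.16 beside -0.07 over all. Over all transcripts 129 were higher and 177 lower, which became 194 and 118 with the abundant pair left out and 95 and 232 under TMM scaling.

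For mt-Cytb, mt-Co1, mt-Co2, mt-Co3 and mt-Atp6, both bulk levels lay above both RiboTag levels, with columns apart. Between the bulk libraries the uninjured level was the higher, with columns that overlapped only for mt-Co3. Between the RiboTag libraries the columns overlapped except for mt-Atp6. The transcripts outside the group with the most similar pattern over the 4 libraries, by Euclidean distance of centred log2 levels from the mean of the 6, were ENSMUST00000097014.7 (distance 0.64) and ENSMUST00000179797.3 (0.90). The median distance of 275 transcripts with 20 or more reads in every library was 5.75. That limit leaves out transcripts with few RiboTag reads, so the median does not show how unusual the pattern is. mt-Cytb, mt-Atp6 and mt-Atp8, with 2.33, 18.7 and 1.33 reads in injured RiboTag RNA, would not pass it. ENSMUST00000097014.7 had 3990 and 3854 reads in uninjured and injured bulk RNA and 58.6 and 27.3 in RiboTag RNA. ENSMUST00000179797.3 had 5425 and 4577 and then 119 and 39. The distances of the members themselves ran from 0.55 (mt-Co3) to 4.14 (mt-Atp8), so the mean of the 6 describes mt-Atp8 poorly.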

How the data were processed

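The deposited tables list 116912 mouse transcript identifiers, with 3 numbered columns of estimated counts and 3 of TPM per library, per the file headers. The submitters' processing notes name minimap2, Salmon, GRCm39 and mm39; software versions and settings, the annotation and how the columns arose were not given in the sources used here. The deposited TPM was the estimated count times a constant, within 0.0499% for values of 1 read or more.

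Columns were averaged per library. Each mean was divided by its library's total, 0.5 read was added for log2 ratios, and exact conditional binomial 95% intervals used counts rounded to whole numbers. A transcript entered with 20 or more reads over the 2 libraries (for the change of the ratio, over all 4, with 5 or more in each assay) and was counted at 2-fold or more with an interval excluding no change. Every comparison was computed over all transcripts. All 6 members are named, and the 2 most similar transcripts were taken by distance. Members and lists were chosen with earlier results of these data known. Alternatives were another pseudocount, 4 other scalings, column sums, left-out columns, read minimums and, chosen after seeing the data, added partner transcripts. Python 3.11.15, scipy 1.17.1, edgeR 4.0.16 (TMM) and DESeq2 1.42.0 (size factors) were used. No sequences of the members were in the tables used here. With 1 sample per group no test between conditions was made.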

Additional observations from a re-analysis of the deposited data

Results flagged for a closer look

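The injury change of mt-Co1 differed between the assays by 0.80 on the log2 scale (RiboTag minus bulk, interval 0.13 to 1.46). It is listed here because this interval, which covers counting error in 4 libraries only, excluded no difference. The injury change of mt-Atp6 differed between the assays by 0.91 (0.08 to 1.74), for the same reason. The RiboTag side rests on 68.3 and 24.0 reads for mt-Co1 and on 29.3 and 18.7 reads for mt-Atp6, and the third injured RiboTag column of mt-Atp6 held 26 reads beside 14 and 16. Upward intervals of this kind were found for 2.92% of all transcripts.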

How the results depend on the processing

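No paired analysis was possible because each group holds 1 sample. Of 300 recomputed log2 values of single members, 283 stayed inside the 95% interval of the reported value and 17 did not. Members with few reads have wide intervals that most values would stay inside, such as mt-Atp8 for RiboTag injury (-5.49 to 4.65). Signs also turned inside such intervals, as for mt-Co1 and mt-Co2 for RiboTag injury, so the count does not measure how steady the values were. The bulk log2 ratio of mt-Co1 ran from -0.91 to -0.89 over its alternatives. The count of changed members in bulk RNA (1) became 0 at 5 added reads and at a minimum of 50 reads, and ran from 0 to 1 without single columns, ending without the third. For RiboTag injury (0) it ran from 0 to 1 without single columns, with mt-Co3 lower without the third. For the change of the ratio (0) it was 1 at 5 added reads (mt-Atp6), 1 with summed columns (mt-Atp8) and 2 with the abundant pair out of the totals (mt-Co1 and mt-Atp6), and ran from 0 to 1 without single columns (mt-Atp6 higher without the first, mt-Co3 lower without the third). The cause was not tested. The RiboTag to bulk counts stayed at 5 or 6 without injury and at 5 after it. Leaving the pair out gave RiboTag shares of 0.197% and 0.201%. Adding the partner transcripts gave bulk shares of 6.41% and 5.57%. Without single columns the bulk shares ran from 6.21% to 6.32% and from 5.23% to 5.40%. Scaling moved the median over all transcripts from -0.21 to 0.01 (pair left out), -0.37 (TMM) and -0.33 (DESeq2) for RiboTag injury, and from -0.98 to -0.45, -0.63 and -0.70 for RiboTag against bulk RNA without injury. Over all transcripts and alternatives, counts of higher and lower calls ran from 183 to 1006 and from 133 to 1065 for bulk injury (403 and 352 reported), from 15 to 300 and from 57 to 746 for RiboTag injury (55 and 150), from 398 to 2166 and from 1529 to 5202 for RiboTag against bulk RNA without injury (894 and 2723), from 173 to 1361 and from 753 to 4040 after injury (388 and 1814), and from 95 to 707 and from 87 to 689 for the change of the ratio (129 and 177).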
